A study of Mus musculus with 6 samples.

Results

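The 5′ fragments of glutamate tRNAs of up to 35 nt were followed in hearts that lack Elac2 and in control hearts, with attention to where along the tRNA each fragment ended. A fragment was included when its name began with tRF_5, its length was 35 nt or less and its first 4 nt equalled those of tRF_5_523, tRF_5_524 or tRF_5_525, longer sequences that reach past a glutamate anticodon. This gave 49 of the 1336 tRNA fragment (tRF) sequences, out of 554 in the 5′ class. The rule used sequence and length only, and no measured value.

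The knockout group was 3 mice with loxP-flanked Elac2 (L/L) that also carried cre, given as Elac2 -/- in the genotype label, and the control group was 3 L/L mice without cre, given as Elac2 +/+. All 6 were on a C57BL/6 background, and their ages were not stated in the labels. Cre was driven by the muscle creatine kinase promoter, so that heart cells other than muscle are expected to keep the gene, and RNA was taken from crude hearts. Small RNA of 15 to 35 nt was selected and sequenced with 4 technical replicates per mouse, and the deposited tables hold 1 column of read counts per mouse. Neither Elac2 mRNA nor any cell type marker could be read from tRNA fragments, so genotype and tissue labels were not checked here.

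Transfer RNA for glutamate carries the anticodon TTC or CTC (in DNA letters), and the mouse genome holds many near-identical copies of its genes. ELAC2 is the RNase Z that removes the 3′ trailer from nuclear and mitochondrial tRNA precursors, so its own cut lies at the end of the tRNA opposite to the one that 5′ fragments come from. Nucleases, among them angiogenin, cut mature tRNAs in or near the anticodon loop, and 5′ fragments of glutamate, glycine and valine tRNAs are commonly abundant in mammalian small RNA libraries.

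The members fell into 3 subgroups by their first 8 nt, with 15 sequences that start with TCCCACAT, 15 with TCCCATAT and 19 with TCCCTGGT. The 41-nt sequences that define the first 2 subgroups are printed to show the anticodon, in capitals, and where they differ; each is read 5′ to 3′ from the deposited tables.
tRF_5_523: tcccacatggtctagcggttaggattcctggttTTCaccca
tRF_5_524: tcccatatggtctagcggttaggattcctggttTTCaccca
Positions are counted from 1 at the 5′ end. The longest TCCCACAT and TCCCTGGT sequences, both of 44 nt, folded into an anticodon hairpin with all 5 bp paired, whose first stem strand runs over positions 27 to 31 and whose 7-nt loop runs over 32 to 38. The anticodon at 34 to 36 read TTC for TCCCACAT and CTC for TCCCTGGT. The longest TCCCATAT sequence ends inside the second stem strand, but its first strand and loop have the same letters as TCCCACAT, which gives TTC. Over 41 nt the starts TCCCACAT and TCCCATAT differ only by C6T. RefSeq (GRCm38.p6) lists 8 glutamate tRNA genes with anticodon TTC on 6 chromosomes and 12 with CTC on 8 chromosomes; no genome sequence was used, so no fragment was placed at a single copy.

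The share of glutamate-start fragments in the tRF counts overlapped between the groups. They summed to 945, 726 and 655 counts in the knockout libraries, against 5333, 7815 and 7640 in the control libraries, which held 45354 to 61712 and 235046 to 773252 tRF counts in all. As a share of a library's tRF count they made up 1.45% ± 0.340 (SD, n = 3) in knockout and 1.77% ± 0.666 (SD, n = 3) in control hearts, with overlapping groups (exact two-sided permutation test, p = 0.60). The difference of −0.31 percentage points depended on single libraries: it was −0.06 without control replicate 1, −0.69 without control replicate 2, −0.19 without control replicate 3 and −0.12 without knockout replicate 3. It was −0.72 with tRF_5_284, the most abundant tRF, left out of the total. As a share of the 5′ class they made up 1.69% ± 0.433 in knockout and 1.82% ± 0.721 in control hearts (SD, n = 3 each; exact two-sided permutation test, p = 0.80), a difference whose sign turned to 0.16 percentage points without control replicate 1 and to 0.12 without knockout replicate 3. In bulk libraries, fewer cells of a type and less RNA per cell cannot be told apart. How many small RNA reads each library held beyond its tRF counts is unknown here. With 3 mice against 3, exact tests cannot give a p below 0.10.

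The clearest difference between the groups was in the cut positions. Fragments that end at position 29, inside the first strand of the anticodon stem, made up most of the glutamate counts in control hearts and a smaller part in knockout hearts. In the knockout libraries 43.2%, 44.5% and 35.4% of the glutamate counts were 29 nt long, against 63.8%, 79.0% and 82.4% in the control libraries. Each knockout library lay below each control library, and the 95% Wilson intervals reached at most 3.65 percentage points either side in knockouts and 1.29 in controls. Such intervals cover counting error only, since reads without molecular identifiers are not independent molecules. The means were 41.0% ± 4.90 in knockout and 75.1% ± 9.93 in control hearts, a difference of −34.0 percentage points (SD, n = 3 each; exact two-sided permutation test, p = 0.10, adjusted p = 0.20 by Benjamini-Hochberg over 16 lengths). These shares are taken within a library and do not depend on any scaling between libraries.

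Fragments with ends on either side of position 29 took larger shares in knockout hearts. Shares add up to 100%, so a lower share at 29 nt raises the sum of the others. At 33 nt, where the cut falls in the loop just before the anticodon, the share was 20.2%, 14.7% and 12.1% in the knockout libraries, against 6.32%, 3.25% and 2.28% in the control libraries. At 31 nt, the last base of the stem strand, it was 12.9%, 12.4% and 19.2% in knockout and 7.46%, 5.64% and 4.66% in control libraries. The groups were apart at both lengths, and they were apart in the same direction at 25, 26 and 30 nt. They were barely apart at 22 and 23 nt, where few counts were held. At 22 nt there were 1, 1 and 9 counts in knockout and 1, 8 and 2 in control libraries. At 23 nt there were 8, 5 and 2 in knockout and 16, 5 and 0 in control libraries. The 30-nt share was 7.46% ± 1.29 in knockout and 2.95% ± 0.882 in control hearts, and the 26-nt share 4.53% ± 0.756 and 1.54% ± 1.61 (SD, n = 3 each; exact two-sided permutation test, p = 0.10 at both lengths). The shares of the 27-nt and 28-nt forms overlapped between the groups, and made up 1.68% ± 0.691 and 6.65% ± 1.22 in knockout, and 1.74% ± 0.381 and 6.07% ± 2.06 in control hearts (SD, n = 3 each; exact two-sided permutation test, p = 1.0 and 0.80). Groups also overlapped at 32, 34 and 35 nt.

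Grouped by structure, fragments that end in the first stem strand made up 71.7% ± 2.39 of the glutamate counts in knockout and 91.7% ± 5.47 in control hearts. Fragments that end in the loop or the anticodon made up 20.2% ± 3.77 in knockout and 6.16% ± 3.59 in control hearts, and those that end before the stem 8.10% ± 2.07 and 2.09% ± 1.91 (SD, n = 3 each; exact two-sided permutation test, p = 0.10 for each). Within TCCCTGGT the share that ends before the stem did not rise. It was 0% in all knockout libraries and 5.15%, 0% and 1.67% in the control libraries, on few counts. The 29-nt form was the most abundant length in all 6 libraries, whereas 33 nt ranked second in knockout replicates 1 and 2, 31 nt in knockout replicate 3 and in control replicates 2 and 3, and 28 nt in control replicate 1. The count-weighted mean length was 29.8 ± 0.166 nt in knockout and 29.2 ± 0.0987 nt in control hearts (SD, n = 3 each; exact two-sided permutation test, p = 0.10).

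Forms of 27 to 29 nt together took 49.9%, 52.6% and 45.5% of the glutamate counts in the knockout libraries, against 74.2%, 85.7% and 88.7% in the control libraries. Control replicate 1 lay between the knockout libraries and the other 2 controls (95% Wilson interval 73.0% to 75.4%). The mean share at 27 to 29 nt was 49.4% ± 3.60 in knockout and 82.9% ± 7.63 in control hearts (SD, n = 3 each; exact two-sided permutation test, p = 0.10). The difference of −33.5 percentage points ran from −37.8 to −30.6 as each library was left out in turn. Expressed as a ratio of 27 to 29 nt over 30 to 32 nt, the log2 value was 1.20, 1.21 and 0.72 in the knockout libraries, against 2.51, 3.23 and 3.65 in the control libraries, a mean difference of −2.09 (exact two-sided permutation test, p = 0.10).

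Both TTC subgroups showed this pattern, and the fragments on which it rests are printed next. The capital marks position 6, the base at which the subgroups differ; the members of a pair are otherwise the same, and each longer form extends the shorter one at its 3′ end, so they may come from the same tRNAs and are not independent.
tRF_5_245: tcccaCatggtctagcggttaggattcct
tRF_5_246: tcccaTatggtctagcggttaggattcct
tRF_5_309: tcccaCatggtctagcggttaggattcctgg
tRF_5_310: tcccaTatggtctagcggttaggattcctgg
tRF_5_373: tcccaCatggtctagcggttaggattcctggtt
tRF_5_374: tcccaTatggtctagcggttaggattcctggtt
Within TCCCACAT the 29-nt form took 46.2% ± 6.26 of the counts in knockout and 78.5% ± 12.3 in control hearts, and within TCCCATAT 38.6% ± 3.80 and 76.6% ± 8.96 (SD, n = 3 each; exact two-sided permutation test, p = 0.10 for each). The number of 29-nt reads for every 31-nt read was 2.22, 1.98 and 1.94 for TCCCATAT in knockout libraries, against 7.82, 12.4 and 14.6 in control libraries. For TCCCACAT it was 4.69, 5.49 and 1.88 in knockout and 9.40, 16.3 and 21.7 in control libraries. The spread was wider for the 29-nt reads per 33-nt read, which were 2.39, 4.37 and 5.63 for TCCCACAT in knockout libraries and 9.44, 44.0 and 105 in control libraries. For TCCCATAT they were 2.57, 2.35 and 4.22 in knockout and 12.2, 52.3 and 66.1 in control libraries. All 4 ratios lay lower in each knockout library than in any control library. The 29-nt reads per 28-nt read of TCCCACAT overlapped, with 9.55, 9.08 and 3.86 in knockout and 7.03, 16.8 and 22.5 in control libraries. These ratios were picked after their values were seen and are given as a description.

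Tested one by one on the whole table, the members called by edgeR with its filter and TMM scaling were 27 to 29 nt long. The quasi-likelihood test of edgeR, with TMM scaling between libraries and Benjamini-Hochberg adjustment over the 254 sequences that passed its filter on low counts, called 5 of the 17 members that passed, all lower in knockout hearts, and 0 higher. Over all 254 sequences 16.9% were called lower and 15.7% higher. The groups did not overlap in 10 of the 17 members, all lower in the knockout, where 18.5% of all tested sequences were apart in that direction. At an unadjusted p under 0.05 edgeR gave 7 members lower and 0 higher, where 18.9% of all tested sequences were lower. DESeq2 called 7 of 32 members with an adjusted p lower and 0 higher, where 15.4% of all such sequences were lower. With no filter on low counts edgeR called 8 of the 49 members lower, where 5.54% of all sequences were. Both counts include the 32-nt tRF_5_339, which was also called with a filter of 10 counts in 3 libraries. The number called was 3 of 27 without knockout replicate 1 (10.8% of all tested sequences) and 8 of 18 without control replicate 1 (19.9%), where tRF_5_276, tRF_5_309, tRF_5_310 and tRF_5_375, of 30 to 33 nt, were among them. The authors' deposited table calls the same 5 members lower out of 34 with an adjusted p there (11.5% of all its sequences with one), and 0 higher. The filter removed 32 members, which had 1 to 66 counts over the 6 libraries.

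The 29-nt fragments had the largest falls. tRF_5_246 had 992, 767 and 862 CPM (counts scaled to 1e6 of the TMM-scaled library total) in the knockout libraries, against 6068, 14868 and 16653 CPM in the control libraries. Its highest knockout value was thus well under its lowest control value, and its log2 fold change was −3.84 with an SE of 0.69 (adjusted p = 0.0008, edgeR). tRF_5_245, the most abundant member, had 2097, 2082 and 1200 CPM in knockout and 8249, 22323 and 25036 CPM in control libraries, a log2 fold change of −3.37 with an SE of 0.70 (adjusted p = 0.0021, edgeR). The lowest control value of both was that of control replicate 1. In the authors' deposited table the log2 fold changes of tRF_5_246 and tRF_5_245 are −3.95 and −3.48.

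The 28-nt forms also fell on this scale. tRF_5_212 (TCCCATAT) had 159, 212 and 133 CPM in knockout and 675, 1179 and 1101 CPM in control libraries, a log2 fold change of −2.55 with an SE of 0.66 (adjusted p = 0.0071, edgeR). tRF_5_211 (TCCCACAT) had 220, 229 and 311 CPM in knockout and 1173, 1330 and 1114 CPM in control libraries, a log2 fold change of −2.25 with an SE of 0.62 (adjusted p = 0.0099, edgeR). The knockout values of both lay under all control values. The call of tRF_5_211 was lost without knockout replicate 1 or 2 (edgeR adjusted p = 0.12 and 0.11), and that of tRF_5_212 without knockout replicate 1 (adjusted p = 0.073).

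Among the tested members of 30 nt or more, edgeR called none with all 6 libraries, its own filter and TMM scaling. tRF_5_310, of 31 nt, had 447, 388 and 444 CPM in knockout and 776, 1197 and 1141 CPM in control libraries, a log2 fold change of −1.28 with an SE of 0.61 (adjusted p = 0.13, edgeR). tRF_5_309 had 447, 379 and 640 CPM in knockout and 878, 1366 and 1154 CPM in control libraries, at −1.21 with an SE of 0.61 (adjusted p = 0.15, edgeR). The groups were apart for both, and without control replicate 1 both were called lower (edgeR adjusted p = 0.014 for tRF_5_310 and 0.022 for tRF_5_309). The 33-nt tRF_5_373 stood at the other end of the members, with 878, 476 and 213 CPM in knockout and 873, 508 and 239 CPM in control libraries. These values overlapped almost in full, and the log2 fold change was −0.05 with an SE of 0.71 (adjusted p = 0.96, edgeR). It was above 0 with upper-quartile scaling, with library totals alone and with a filter of 10 counts in 3 libraries. The same held without knockout replicate 3 or control replicate 1. Its TCCCATAT counterpart tRF_5_374 had 386, 326 and 204 CPM in knockout and 498, 284 and 252 CPM in control libraries, also with overlap (adjusted p = 0.89, edgeR). By window, the tested members had a median log2 fold change of −3.08 over 5 members at 27 to 29 nt, −1.21 over 5 at 30 to 32 nt, −0.98 over 5 at 33 to 35 nt and −0.63 over 2 below 27 nt.

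These fold changes are relative to the other tRF sequences and depend on the scaling. The 17 members had a median log2 fold change of −1.21 under TMM, against 0.06 over all 254 tested sequences. With library totals alone it was 0.95 for the members and 2.15 for all tested sequences, and 0 of the 17 members were called, while 40.9% of all tested sequences were called higher and 2.76% lower. The 29-nt fragments kept the lower sign under that scaling, at −1.43 for tRF_5_246 and −0.88 for tRF_5_245, while tRF_5_310, tRF_5_309 and tRF_5_373 turned to 0.95, 0.98 and 1.78. With upper-quartile scaling the median was −0.73 for the members and 0.43 for all tested sequences, and the same 5 members were called.

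Summed over each subgroup in place of its members, the TTC starts were called lower in knockout hearts, in a fit of 240 rows of which 17.1% were called lower. The TCCCATAT sum was 2260 ± 110 CPM in knockout and 15905 ± 5909 CPM in control hearts (SD, n = 3 each), a log2 fold change of −2.89 with an SE of 0.67 (adjusted p = 0.0024, edgeR). The TCCCACAT sum was 3832 ± 757 CPM in knockout and 22702 ± 8642 CPM in control hearts (SD, n = 3 each), at −2.65 with an SE of 0.67 (adjusted p = 0.0043, edgeR); without knockout replicate 2 its adjusted p was 0.0503. The TCCCTGGT sum was 368 ± 92.9 CPM in knockout and 1534 ± 832 CPM in control hearts (SD, n = 3 each), at −2.14 with an SE of 0.71 (adjusted p = 0.022, edgeR), and this call was lost without knockout replicate 1, 2 or 3 or control replicate 3 (adjusted p between 0.0635 and 0.212), with upper-quartile scaling (adjusted p = 0.067) and with the replicate number as a block (adjusted p = 0.062). With library totals alone none of the sums was called, and the log2 fold changes were −0.47 for TCCCATAT, −0.18 for TCCCACAT and 0.43 for TCCCTGGT.

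The shares of both TTC subgroups overlapped between knockout and control hearts. TCCCACAT took 58.9% ± 6.24 of the glutamate counts in knockout and 56.6% ± 0.251 in control hearts, TCCCATAT 35.3% ± 4.28 and 39.8% ± 0.864, and TCCCTGGT 5.80% ± 1.99 and 3.60% ± 0.926 (SD, n = 3 each; exact two-sided permutation tests, p = 0.40, 0.30 and 0.10, adjusted p = 0.40, 0.40 and 0.30 over the 3 subgroups). The TCCCACAT difference of 2.35 percentage points was 0.34, 0.76 and 5.94 without knockout replicate 1, 2 and 3. Without knockout replicate 3 the TCCCATAT difference was −7.00, against −4.55 with all libraries, and the TCCCTGGT difference was only 1.06. For each TCCCACAT count there were 0.513, 0.537 and 0.776 TCCCATAT counts in the knockout libraries, against 0.717, 0.687 and 0.706 in the control libraries. Knockout replicate 3 thus lay above the control range and the other 2 below it. At 29 nt tRF_5_246 stood at 47.3%, 36.9% and 71.9% of tRF_5_245 in knockout and 73.6%, 66.6% and 66.5% in control libraries, a mean log2 difference of −0.46 with overlapping groups (exact two-sided permutation test, p = 0.30, adjusted p = 1.0 over 9 lengths). That difference was −0.24 without knockout replicate 2 and −0.72 without knockout replicate 3. At 32 nt the pair was apart, with tRF_5_339 at 16.7% to 22.2% of tRF_5_338 in knockout and 47.0%, 57.9% and 164% in control libraries, but they had only 6 and 32 knockout counts in all (exact two-sided permutation test, p = 0.10, adjusted p = 0.90). A read with an error at position 6 would be counted for the other subgroup, and how the authors assigned such reads was not stated. Across the 14 lengths that both subgroups hold, their counts were correlated within each library (Pearson r of 0.933 to 0.981 in knockout and above 0.99 in control libraries, across lengths of 1 library, which share its depth). The 29-nt form was the largest of both subgroups in every library. Such a shared peak can give a high r by itself, so r says little about the other lengths.

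Most TCCCTGGT counts belonged to 1 ladder of nested members. The shortest, of 27 nt, is printed because the other members of the ladder extend it at the 3′ end. The capital marks its last base, position 27, the first of the anticodon stem. The 44-nt TCCCTGGT sequence has C at this position, so the whole ladder is a C27T variant of it. The origin of this difference was not tested.
tRF_5_191: tccctggtggtctagtggttaggattT
With tRF_5_191 the ladder had 9 members of 27 to 35 nt, which held 128 of the 131 counts of the subgroup in knockout libraries and 712 of 773 in control libraries. Sharing a start, they are not independent of one another. The TCCCTGGT counts and shares cover the 19 members of this subgroup, and no other 5′ fragment of 35 nt or less with this start was listed.

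The fragments of this ladder had other favoured lengths than the TTC subgroups. tRF_5_191, of 27 nt, had 9, 7 and 8 counts in the knockout libraries, against 69, 95 and 129 in the control libraries. In CPM it stood at 67.0 ± 4.78 in knockout and 574 ± 282 in control hearts (SD, n = 3 each), a log2 fold change of −3.08 with an SE of 0.75 (adjusted p = 0.0044, edgeR); without control replicate 1 or 3 it did not pass the filter on low counts. tRF_5_375, of 33 nt, had 24, 16 and 32 counts in knockout and 12, 123 and 100 counts in control libraries. Control replicate 1 lay under all knockout libraries here even before scaling, and tRF_5_375 was not called (log2 fold change −1.26 with an SE of 0.83, adjusted p = 0.30 by edgeR). Within the subgroup, 27- to 29-nt forms took 15.1% to 24.2% of the counts in knockout libraries (95% Wilson intervals within 7.85% to 41.0%), against 37.1% to 64.0% in control libraries (within 32.1% to 71.6%). The groups were apart in the same direction as in the TTC subgroups (exact two-sided permutation test, p = 0.10). At 28 nt and 29 nt, tRF_5_214 and tRF_5_248 had 0 counts in all knockout libraries, which allows up to 3 counts, and 15 and 21 counts over the control libraries. The knockout libraries held far fewer tRF counts in all, so these 0 counts do not show absence by themselves.

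The 10 TCCCTGGT members outside the ladder, of 24 to 30 nt, were scarce. They end before the anticodon, so CTC was not read in them and rests on the shared start alone. Each of them also differed from the 44-nt TCCCTGGT sequence in at least 1 base, so no TCCCTGGT member matched that sequence in full. tRF_5_247, of 29 nt, had 0 counts in the knockout libraries and 4, 10 and 6 in the control libraries, and tRF_5_277, of 30 nt, had 1, 1 and 0 counts in knockout and 3, 10 and 7 in control libraries. Neither passed the filter on low counts. With the smaller knockout totals, the 0 counts of tRF_5_247 do not show absence by themselves.

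Counts in this paragraph are raw, and control libraries held 235046 to 773252 tRF counts against 45354 to 61712 in knockout libraries. Just inside the length limit, the 35-nt members had 4, 5 and 6 counts in the knockout libraries and 36, 39 and 20 in the control libraries. As a share of the glutamate counts this was 0.68% ± 0.247 in knockout and 0.48% ± 0.207 in control hearts, with overlapping groups (SD, n = 3 each). Just outside it, at 36 nt, tRF_5_452 had 3, 4 and 1 counts in knockout and 95, 70 and 31 in control libraries, tRF_5_453 had 1, 2 and 0 against 43, 32 and 17, and tRF_5_454 had 1, 0 and 0 against 5, 27 and 10.

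A shift in the same direction was seen in other 5′ fragments. In the 381 other 5′ fragments of up to 35 nt, the log2 ratio of 27 to 29 nt over 30 to 32 nt was −3.45, −2.87 and −3.40 in the knockout libraries and −0.84, −1.89 and −1.38 in the control libraries, a mean difference of −1.87, next to −2.09 for the glutamate fragments. Taken within each library, the glutamate ratio lay 4.65, 4.08 and 4.12 above that of the other fragments in knockouts, and 3.35, 5.12 and 5.03 above it in controls. The groups overlapped, with a mean difference of −0.22 (exact two-sided permutation test, p = 0.80), which was 0.10 without control replicate 2 and 0.05 without control replicate 3. The other fragments were dominated by tRF_5_284, a 31-nt glycine fragment. Without it the difference was 1.24, with the groups apart in the other direction (exact two-sided permutation test, p = 0.10). By start, with at least 10 sequences and 20 counts of both length windows in each library, the mean difference in the ratio was −1.84 for GCATTGGT, −2.73 for GCCGTGAT, −3.16 for GGCTCGTT and −1.67 for GTTTCCGT, against −2.09 for TCCCACAT and −2.18 for TCCCATAT. All 6 were lower in each knockout library than in any control library. In level the TTC glutamate starts kept more 27- to 29-nt than 30- to 32-nt counts in all 6 libraries, whereas the other starts had fewer in all knockout libraries.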

How the data were processed

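Per the labels' protocols, total RNA from heart was made into small RNA libraries; the tools were DESeq2 1.16.1, Bowtie2 2.2.9 and cutadapt 1.1.4, and the build mm10, per the submitters' processing notes. Not given in the sources used here are the tRF sequence set, how reads were mapped and how technical replicates were combined. The authors deposited raw counts per sequence, a normalized signal (the raw count times 1 factor per library) and a table of their own comparison with a log2 fold change, its standard error, a Wald score and p-values. Only the counts were tested here.

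Counts were fitted over the whole table with edgeR 4.0.16 (R 4.3.3): filterByExpr with a minimum count of 10, TMM factors over the sequences kept, group as the only term, the quasi-likelihood test and a threshold of 0.05. Each SE was obtained from the log2 fold change and its F statistic. The filter is relative to library totals, so a knockout library passes with fewer counts. Ratios and shares were compared over mice with exact two-sided permutation tests (SciPy 1.17.1). The anticodon was read from a hairpin with a 5-bp stem and 7 loop bases. The edgeR step was tested on simulated data in which both groups had the same composition apart from set changes. That did not test the scaling between groups. In the real data the TMM factors were 1.85 to 2.56 in knockout and 0.21 to 1.02 in control libraries. The members named are those called, the 5 with the highest mean CPM, the most counted of each subgroup and the 2 extremes; other names were added after their values were seen. Members, lists and tests were chosen with earlier results of these data known. No sequence occurred more than once in the table, no row was left out, and 0 columns belonged to other samples. Some sequences with the start TCCCTGGT, and results that need them, are not reported here.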

Additional observations from a re-analysis of the deposited data

How the results depend on the processing

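The lower share of 27- to 29-nt forms, the lower ratio and the longer mean length in knockout hearts kept their direction in all alternatives run, for the members together and for each subgroup. The count of members called lower was 0 with library totals alone and 8 with no filter, and 3 to 8 when a library was left out; it was within 1.5 times of 5 otherwise, and 0 members were called higher under every alternative. Left-out libraries gave sums of −2.97 to −2.46 for TCCCACAT and −2.57 to −1.77 for TCCCTGGT. Library totals alone gave −0.18 for TCCCACAT, −0.47 for TCCCATAT and 0.43 for TCCCTGGT, whose sum was −1.69 with upper-quartile scaling and −1.97 with the replicate block. The named fragments tRF_5_309, tRF_5_310 and tRF_5_373 turned to 0.98, 0.95 and 1.78 with library totals alone, and tRF_5_373 also to 0.17 with upper-quartile scaling, to 0.10 with a filter of 10 counts in 3 libraries and between −0.59 and 0.45 with libraries left out. Without tRF_5_245, the most abundant member, the share at 27 to 29 nt differed by −39.8 points over all members and −16.5 within TCCCACAT, the log2 ratio within TCCCACAT by −1.14, the share of TCCCACAT by 22.5 and of TCCCATAT by −23.7 points, and the difference in share of tRF and 5′ counts turned to 0.0384 and 0.177 points. With 29 nt or shorter against 30 to 35 nt the share differed by −27.5 points over all members and −28.8 in TCCCATAT, and the log2 ratio in TCCCTGGT by −2.19. The difference in share of 5′ counts turned to 0.25 points without tRF_5_284 in the total and ran from −0.53 to 0.16 with libraries left out. The ratio against other 5′ fragments turned to 1.24 without tRF_5_284 and ran from −0.79 to 0.10 with libraries left out. The cause was not tested in any of these. Whether the replicate numbers pair the mice could not be settled. Same-numbered deviations correlated at −0.01, 0.29 and 0.05, and differently numbered ones at −0.30 to 0.20. With the replicate block the same 5 members were called, and a paired exact test cannot give a p below 0.25 here. Knockout libraries hold 655 to 945 glutamate counts, which limits shares of scarce lengths. Leaving 5′ fragments over 35 nt out of the total, chosen after seeing the data, kept the side and sign of both member shares. Collapsing identical sequences changed nothing, since there were none.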
